A study of Mus musculus with 12 samples.

Results

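Fatty acid binding and uptake genes were followed across 4 culture media in the mouse macrophage line RAW264.7. The genes were those carrying the platform symbols Fabp3, Fabp4, Fabp5, Cd36, Lpl, Slc27a1 and Slc27a4, and each was read from its probe set (the group of array probes for 1 transcript) with the highest mean. All 7 were found among the 30464 genes named on the array, and all 7 passed the filter on low values that left 18119 genes for testing. RNA was taken from bulk cultures after 24 h, with 1 array per sample and 3 arrays per medium. Normal medium was RPMI with 10% fetal bovine serum. SCR medium was an equal mix (50%) of that medium with medium conditioned by SCR PyMT-41C cells; the labels do not spell out SCR. KO medium was the same mix made with JMJD6-KO PyMT-41C cells, so the JMJD6 knockout lay in the cell line that conditioned the medium, not in the macrophages measured. The last group had SCR medium with CSH, which the labels call a blockade of the ANXA-1 receptor. The labels name no CSH in normal medium and no vehicle, and do not say whether the knockout line is 1 clone or whether replicates came from separate cultures. A p-value here therefore speaks only of the spread among these arrays, which could be technical.

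Long-chain fatty acids reach a macrophage free or packed in lipoprotein triglyceride. Lipoprotein lipase, the product of Lpl, cuts triglyceride outside the cell. CD36, a membrane scavenger receptor, and the SLC27 fatty acid transport proteins bring fatty acids across the membrane, the latter also joining them to coenzyme A. Inside the cell the small cytosolic FABP proteins carry them. Fabp4, Cd36 and Lpl are known targets of the lipid-sensing nuclear receptor PPAR-gamma, and FABP4 and FABP5 are the FABP proteins for which macrophages are best known.

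Each value is a log2 signal from RMA, a normalization across arrays; means are given with the SD over 3 arrays, and differences are on the log2 scale, each with its standard error (SE) from 1 limma fit of the 12 arrays. A gene was called changed where the Benjamini-Hochberg adjusted p over all 18119 genes was below 0.05. A probe set's signal was compared between media only, never with that of another gene. Array medians ran from 5.40 to 5.52, and no array was a copy of another. Of 10 macrophage marker genes 9 passed the filter, Mertk being the exception at 5.02 to 5.16. The filter passed 18119 of all 30464 named genes, so passing it does not by itself show cell identity. Markers of other cells that use these genes were near the floor: 2 of 7 named adipocyte markers, 2 of 7 endothelial, 2 of 10 mammary epithelial and 0 of 3 fibroblast markers passed the filter. The adipocyte markers summed to a log2 signal of 7.90 to 7.95 in normal, 7.89 to 8.02 in SCR, 7.94 to 7.95 in KO and 7.94 to 7.97 in CSH-treated SCR medium, with Adipoq at 4.29 to 4.52 in all arrays. Summed over all groups, the endothelial markers lay at 7.88 to 8.05, the epithelial at 8.27 to 8.37 and the fibroblast at 6.32 to 6.47.

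In SCR medium the 3 membrane uptake genes of this set rose, while lipoprotein lipase and the 3 FABP genes of the set fell. All 7 thus changed against normal medium, 3 up and 4 down. Cd36 rose 2.08-fold, Slc27a1 1.58-fold and Slc27a4 1.27-fold. Fabp4 fell 5.16-fold, Lpl 3.38-fold, Fabp3 1.39-fold and Fabp5 1.20-fold. Of all genes tested, 35.2% changed in this comparison, 19.3% up and 15.8% down. The arrays of the 2 media did not overlap for 7 of 7 genes, against 43.3% of all genes. The median change of the 7 genes was -0.26, against 0.02 over all genes tested.

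Cd36 encodes the scavenger receptor that binds long-chain fatty acids and oxidised lipoproteins. It read 8.36, 8.15 and 8.02 in normal medium, 9.35, 9.10 and 9.25 in SCR medium, 9.88, 9.63 and 9.94 in KO medium, and 8.86, 8.98 and 8.95 in SCR medium with CSH. The 4 media did not overlap on any array, in the order normal, SCR with CSH, SCR and KO medium. From 8.18 ± 0.17 (SD, n = 3) in normal medium the signal rose to 9.23 ± 0.13 in SCR medium, by 1.06 (SE 0.10, adjusted p = 4.95e-06).

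The promoters of Cd36, a gene that rose in all 3 conditioned media, and of Fabp3, a gene that fell in all 3, are given as the 250 bases before the start site (RefSeq, GRCm38.p6, the assembly of mm10). The table of promoters held 4 of the 7 genes, with 6 start sites; Fabp4, Fabp5 and Lpl were not matched. Capitals mark matches to any of 4 motifs, namely GGGCGG as the GC box, CCAAT as the binding motif of factor NF-Y, TATAAA as the TATA motif, and the DR1 repeat bound by PPAR and RXR (a pair of AGGNCA copies with 1 base between them), searched on both strands and chosen after the data had been seen.
Cd36 (chr5:17835897-17836146, minus strand): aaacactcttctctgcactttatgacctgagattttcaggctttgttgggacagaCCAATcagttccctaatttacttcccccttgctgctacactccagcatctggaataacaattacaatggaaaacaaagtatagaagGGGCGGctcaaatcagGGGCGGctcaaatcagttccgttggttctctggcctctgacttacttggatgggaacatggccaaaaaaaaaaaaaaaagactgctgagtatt
Fabp3 (chr4:130308488-130308737, plus strand): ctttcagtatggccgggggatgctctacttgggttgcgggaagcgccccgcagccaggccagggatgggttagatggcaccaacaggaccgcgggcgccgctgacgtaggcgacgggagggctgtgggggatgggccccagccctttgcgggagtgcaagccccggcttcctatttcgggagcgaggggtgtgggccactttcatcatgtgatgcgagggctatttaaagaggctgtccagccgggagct
The Cd36 window held CCAAT once, starting 195 bases before the start site, and GGGCGG at 109 and 93 bases before it. The Cd36 gene spans 17781690 to 17888959 on chromosome 5, so this start site lies inside the gene's span. The Fabp3 window held none of the 4 motifs in these letters. Of 32851 promoter windows of this length, 32.7% held GGGCGG, 33.8% CCAAT, 12.4% TATAAA and 0.338% the DR1 repeat. The motifs do not overlap in the Cd36 window, and a match is a description of letters only.

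Slc27a1 and Slc27a4 encode fatty acid transport proteins FATP1 and FATP4. Slc27a1 (chromosome 8, 71568728 to 71587307) read 12.82, 12.79 and 12.76 in normal medium, 13.58, 13.29 and 13.47 in SCR medium, 13.76, 13.75 and 13.71 in KO medium, and 13.57, 13.47 and 13.36 in SCR medium with CSH. All 9 conditioned arrays lay above the normal ones, and the KO arrays above every other. The rise in SCR medium was 0.66 (SE 0.07, adjusted p = 1.86e-05). Slc27a4 (chromosome 2, 29802634 to 29817522) moved less, from 8.07, 8.05 and 7.91 in normal medium to 8.48, 8.19 and 8.38 in SCR medium, with 8.58, 8.48 and 8.41 in KO medium and 8.52, 8.42 and 8.28 in SCR medium with CSH. Its arrays in normal medium lay below all others, while the 3 conditioned media overlapped. The change in SCR medium was 0.34 (SE 0.09, adjusted p = 0.00775).

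Lpl, the lipase gene (chromosome 8, 68880555 to 68906932), read 10.16, 9.90 and 9.45 in normal medium and 8.12, 8.10 and 8.02 in SCR medium. In KO medium it read 7.56, 7.53 and 7.41, and with CSH 7.99, 7.94 and 7.90. The arrays in normal medium were the most spread (SD 0.36) and lay above all others, and no media overlapped, in the order normal, SCR, SCR with CSH and KO medium. The fall in SCR medium was -1.76 (SE 0.13, adjusted p = 6.49e-07), a size that 0.613% of tested genes exceeded.

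Among the FABP genes, Fabp4, the adipocyte and macrophage form (chromosome 3, 10204342 to 10208616), fell most. It read 9.13, 8.64 and 9.36 in normal medium, 6.44, 6.91 and 6.68 in SCR medium, 6.67, 6.71 and 6.57 in KO medium, and 6.94, 7.37 and 6.65 in SCR medium with CSH. The arrays in normal medium stood apart, and the 3 conditioned media overlapped. The change in SCR medium was -2.37 (SE 0.19, adjusted p = 1.32e-06), a size that 0.171% of tested genes exceeded.

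Fabp5, the epidermal form (chromosome 3, 10012585 to 10016610), lies 187.7 kb from Fabp4 in a run of 5 FABP genes and moved much less. It read 13.11, 12.89 and 13.06 in normal medium, 12.87, 12.72 and 12.68 in SCR medium, 12.66, 12.60 and 12.56 in KO medium, and 12.86, 12.93 and 12.88 in SCR medium with CSH. Normal and SCR medium were separated by only 0.02 between their nearest arrays, and the CSH arrays overlapped those of normal medium. The change in SCR medium was -0.26 (SE 0.07, adjusted p = 0.00956), and with 1 array left out in turn its adjusted p lay between 0.00306 and 0.0481. The other 3 genes of the run did not pass the filter: Pmp2 read 3.78 to 4.12, Fabp9 5.11 to 5.56 and Fabp12 4.72 to 4.87.

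Fabp3, the heart form (chromosome 4, 130308738 to 130315463), read 7.77, 7.52 and 7.52 in normal medium and 7.15, 7.13 and 7.12 in SCR medium, with 7.04, 6.98 and 7.05 in KO medium and 7.06, 7.13 and 7.05 with CSH. All conditioned arrays lay below the normal ones. The change in SCR medium was -0.47 (SE 0.07, adjusted p = 0.000128). A dimmer second probe set of Fabp3 read 4.85 to 5.08, below every array median, and its mean in SCR medium lay 0.05 above that in normal medium, so the 2 probe sets differed in sign. With both averaged the change in SCR medium was -0.21.

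**Figure D1:**
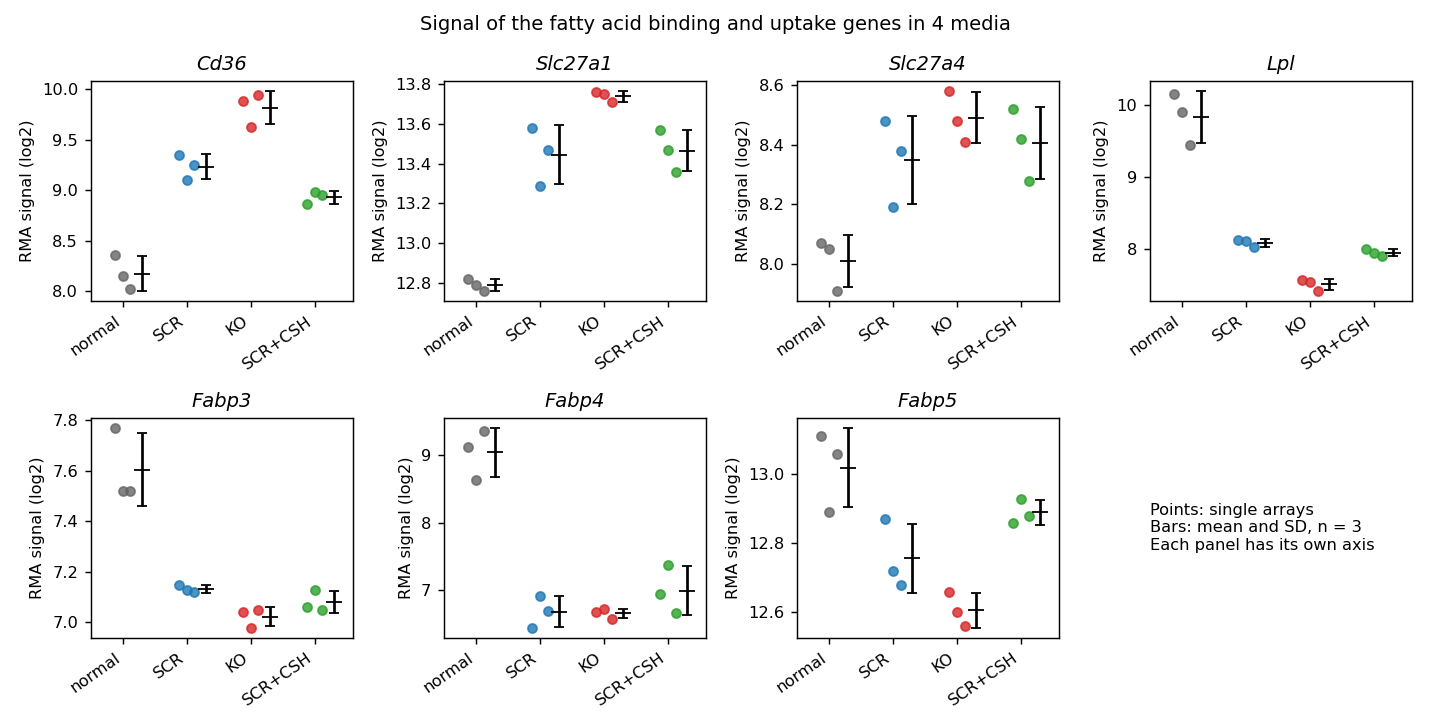
RMA signal (log2, vertical axis, a separate scale in each panel) of the 7 genes in the 4 media; points are single arrays, and bars are the mean and SD of 3 arrays. Cd36, Slc27a1 and Slc27a4 are higher on every conditioned array than on any in normal medium, Lpl, Fabp3 and Fabp4 are lower, and the CSH arrays of Fabp5 (12.86 to 12.93) overlap those of normal medium (12.89 to 13.11).

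The other conditioned media were set against the same normal-medium arrays, so the 3 comparisons share their controls. In KO medium the 7 genes again changed, 3 up and 4 down, where 39.1% of all genes did (21.4% up, 17.6% down). Arrays did not overlap for 7 of 7, against 49.8% of all genes. Lpl fell by 2.34 on the log2 scale, or 5.05-fold, and Fabp4 fell by 2.39, or 5.25-fold. Cd36 rose by 1.64, or 3.12-fold, and Slc27a1 by 0.95, or 1.93-fold. Slc27a4 rose by 0.48, while Fabp3 fell by 0.58 and Fabp5 fell by 0.41. Adjusted p-values for these 7 changes ran from 4.15e-08 (Lpl) to 0.000621 (Slc27a4).

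In SCR medium with CSH, 6 of the 7 genes changed against normal medium, 3 up and 3 down, where 35.8% of all genes did (20.9% up, 14.9% down). Arrays did not overlap for 6 of 7, against 46.8% of all genes. Cd36 rose by 0.75 (SE 0.10, adjusted p = 8.46e-05), Slc27a1 by 0.68 and Slc27a4 by 0.40. Fabp4 fell by 2.06, Lpl fell by 1.89 and Fabp3 fell by 0.52. Fabp5 did not pass, at -0.13 (95% interval -0.28 to 0.02, adjusted p = 0.175), so a fall of the size seen in SCR medium (-0.26) lies inside its interval. It passed after quantile normalization (adjusted p = 0.0411) and without normal replicate 3 (adjusted p = 0.048).

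**Figure D2:**
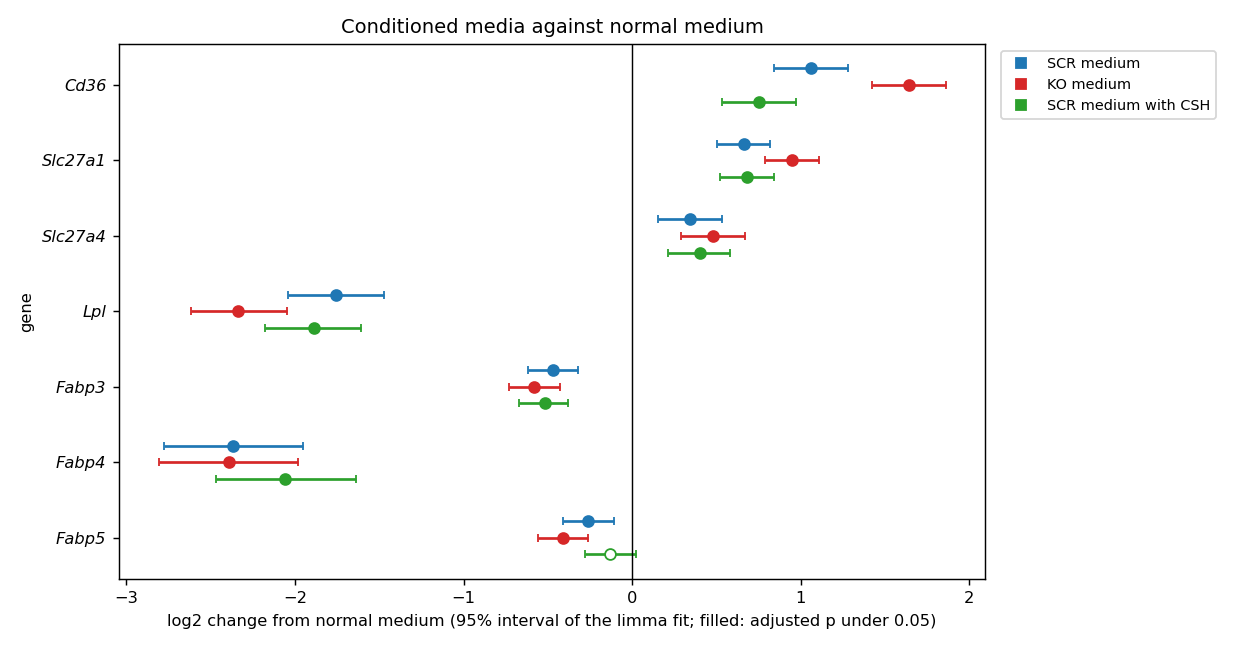
Log2 change from normal medium (horizontal axis) of each gene in SCR, KO and CSH-treated SCR medium; bars are 95% intervals of the limma fit over 12 arrays, and filled points passed an adjusted p of 0.05. The uptake genes Cd36, Slc27a1 and Slc27a4 lie right of 0 and Lpl and the FABP genes left of it, with Fabp5 in SCR medium with CSH (-0.13) as the only open point.

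Macrophage markers changed in both directions beside these. In SCR medium 4 of 9 tested were lower and 2 higher, where 15.8% of all genes were lower and 19.3% higher. Csf1r, the receptor for the growth factor CSF1, changed by -1.79 and Adgre1, which encodes F4/80, by -1.45, whereas Itgam, the CD11b integrin gene, changed by 0.97 and the co-receptor gene Cd14 by 0.61. The part of these marker changes in the changes of the fatty acid genes was not tested. In bulk RNA, fewer cells that express a gene and less RNA of it per cell cannot be told apart.

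The comparison of KO with SCR medium addresses loss of JMJD6 in the conditioning cells. Only Cd36 was called, 1 of 7, where 0.27% of all genes were (0.254% upward). Its mean went from 9.23 ± 0.13 up to 9.82 ± 0.16, a difference of 0.58 (SE 0.10, adjusted p = 0.0323), and stood at place 43 by p among 49 called genes. The call lay near the threshold. It was lost without a filter on low values (adjusted p = 0.0666), after median centring (adjusted p = 0.056) and in the 6 arrays alone (adjusted p = 0.0873). Adding the replicate number to the fit as a block ended it too (adjusted p = 0.149). It was also lost without SCR replicate 1, 3 or 4, KO replicate 1 or 3, CSH replicate 1, 2 or 4, or normal replicate 3, with adjusted p up to 0.178, while the change stayed between 0.52 and 0.68 over all 23 alternatives.

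Lpl stood lower in KO than in SCR medium by as much as Cd36 stood higher, -0.58 (SE 0.13, 95% interval -0.86 to -0.30), but did not pass (adjusted p = 0.135). Its 3 KO arrays, at 7.41 to 7.56, lay below its 3 SCR arrays, at 8.02 to 8.12. The SE comes from all 4 media, among which normal medium had the widest spread. Lpl passed in only 4 of 23 alternatives. These were the 6 arrays alone (adjusted p = 0.023), the fits without normal replicate 4 (adjusted p = 0.00892) or 2 (adjusted p = 0.0362), and array weights (adjusted p = 0.0208). In the other alternatives it did not pass, with adjusted p up to 0.413.

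The remaining differences between KO and SCR medium were smaller. Slc27a1 differed by 0.29 (95% interval 0.13 to 0.45, adjusted p = 0.224), and Slc27a4 by 0.14 (interval -0.05 to 0.33). Fabp5 differed by -0.15 (interval -0.30 to 0.00), Fabp3 by -0.11 (interval -0.26 to 0.04) and Fabp4 by -0.03 (interval -0.44 to 0.39). The arrays of both media did not overlap for 5 of the 7 genes, namely Cd36, Slc27a1, Lpl, Fabp3 and Fabp5, against 9.37% of all tested genes. The Fabp4 interval is wide. Its SE comes from all 4 media, where the SD of Fabp4 was 0.37 in normal medium, 0.36 with CSH, 0.24 in SCR and 0.07 in KO medium.

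Adding CSH to SCR medium called none of the 7 genes, nor any of the 18119 (0% called; 1131 genes had an unadjusted p below 0.05). Cd36 was lower with CSH by -0.30 (95% interval -0.52 to -0.08, adjusted p = 0.722), and its arrays did not overlap those of SCR medium. The arrays of Lpl did not overlap either, at a difference of -0.14 (interval -0.42 to 0.15). This made 2 of 7 genes, against 8.59% of all genes. Fabp4 differed by 0.31 (interval -0.11 to 0.73), with CSH replicate 2 at 7.37 above the others, and without that array by 0.12. Fabp5 differed by 0.13 (interval -0.02 to 0.28), Slc27a4 by 0.06 (interval -0.13 to 0.24), Slc27a1 by 0.02 (interval -0.14 to 0.18) and Fabp3 by -0.05 (interval -0.20 to 0.09).

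KO medium and SCR medium with CSH were also compared directly. Cd36 was again the 1 gene of 7 called, where 1.9% of all genes were (1.21% upward). It was higher in KO medium, 9.82 ± 0.16 against 8.93 ± 0.06, a difference of 0.89 (SE 0.10, adjusted p = 0.000842), or 1.85-fold. This call held in all 23 alternatives run for it, with adjusted p from 0.000459 to 0.0129, and 0.166% of tested genes differed by more. Fabp5 (-0.28, adjusted p = 0.0618), Slc27a1 (0.27, adjusted p = 0.0894) and Lpl (-0.44, adjusted p = 0.12) did not pass, although their arrays did not overlap. With Cd36 this made 4 of 7 genes, against 21.8% of all genes. Each of these 3 passed under some alternatives: Fabp5 in 4, Slc27a1 in 3 and Lpl in 3 of 23. Fabp4 differed by -0.34 (95% interval -0.75 to 0.08), Fabp3 by -0.06 (interval -0.20 to 0.09) and Slc27a4 by 0.08 (interval -0.10 to 0.27).

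**Figure D3:**
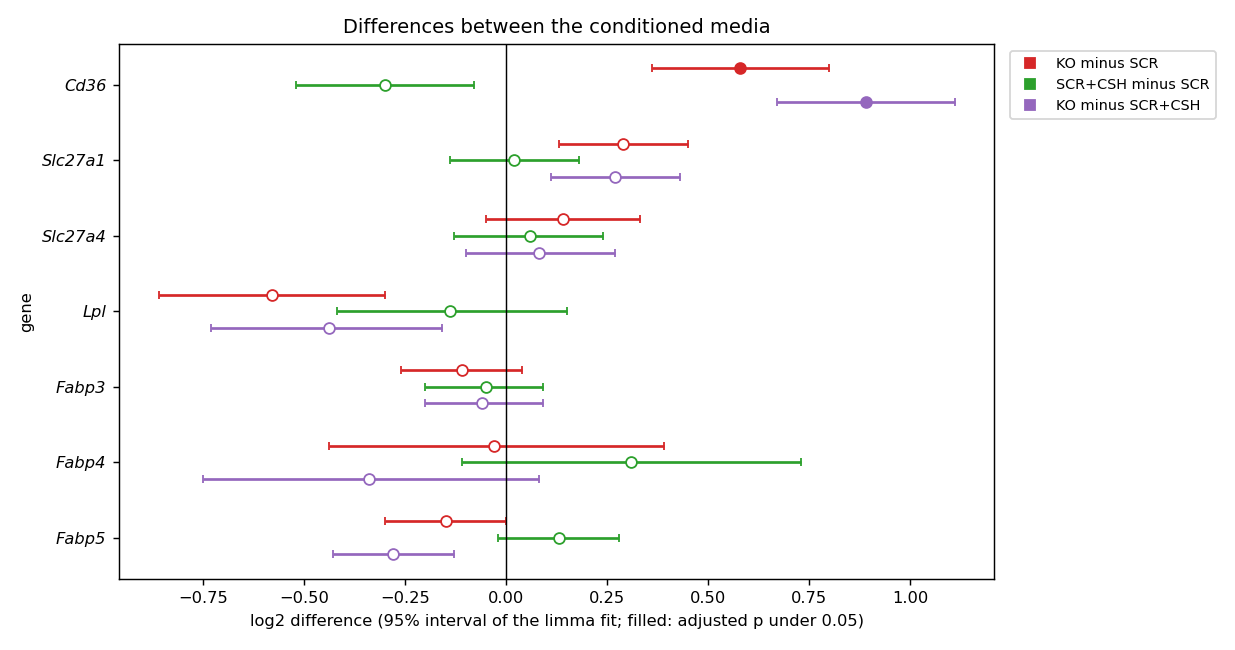
Log2 difference (horizontal axis) between pairs of conditioned media for each gene, with 95% intervals of the limma fit over 12 arrays; filled points passed an adjusted p of 0.05. Cd36 is the only gene with filled points, at 0.58 for KO against SCR medium and 0.89 for KO medium against SCR medium with CSH, and the Lpl intervals for KO medium lie left of 0.

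Group means can be ordered for most of the genes, although the arrays of some conditioned media overlap. For Cd36 they rose from normal through SCR with CSH and SCR to KO medium, with SCR and SCR with CSH not parted by the test. For Slc27a1 and Slc27a4 the mean was lowest in normal and highest in KO medium, and no pair of conditioned media was parted by the test. The KO arrays of Slc27a4 overlapped those of both other conditioned media. For Lpl, Fabp3 and Fabp5 the mean was highest in normal and lowest in KO medium, again with no pair of conditioned media parted. The KO arrays of Fabp3 met those with CSH at 7.05. For Fabp4 normal medium was highest, and KO and SCR medium had no order: their means differed by -0.03, the lowest array was in SCR medium (6.44), and the sign turned without SCR replicate 3 (0.09) or KO replicate 3 (0.01). For Fabp5, normal medium and SCR with CSH were not parted either.

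Genes with the most similar pattern were found by the root mean square difference between their 3 log2 changes from normal medium and those of each fatty acid gene. Nearest to Cd36 were Slc20a1, a phosphate transporter gene (0.071), Crem, a cAMP-responsive transcription factor gene (0.091; changes of 0.91 in SCR, 1.58 in KO and 0.77 in CSH-treated SCR medium), and Pde8a, a cAMP phosphodiesterase gene (0.105). Nearest to Lpl were Cd180, a Toll-like receptor homologue gene (0.062; -1.75, -2.36 and -1.79 in that order), Arsb (0.141) and Stap1 (0.149). Nearest to Fabp4 were Cst7, which encodes cystatin F (0.094), Tnip3 (0.116) and Rab7b (0.123). Genes with smaller changes had smaller distances. The distance is in the log2 units of the changes and was not scaled to their size. The nearest were Pla2g5, Mt2 and Nucb1 for Slc27a1 (0.030 to 0.038), Lsm1, Brf2 and Tmed4 for Slc27a4 (0.004 to 0.017), Aldh5a1, Cops2 and Pik3ip1 for Fabp3 (0.016 to 0.022), and Cyp51, a gene of cholesterol synthesis, Dnase2a and Rnaseh2a for Fabp5 (0.013 to 0.020).

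Other genes of fatty acid handling were read from 9 lists, some genes being in more than 1. Every count of rises and falls in SCR medium stands against 19.3% of all genes up and 15.8% down, 35.2% together. Of 7 other FABP genes only Fabp1, the liver form, passed the filter, and it did not reach the threshold (-0.01, adjusted p = 0.948). Of 7 tested genes of other fatty acid transport and binding, 1 rose and 2 fell in SCR medium, a share near that of all genes (35.2%). Dbi, the acyl-CoA binding protein gene, fell by 0.50 and the sterol carrier gene Scp2 fell by 0.45, while Acbd3 rose by 0.39. Among the other SLC27 genes only Slc27a3 passed the filter, and it did not reach the threshold (0.07, adjusted p = 0.548). The list's median was -0.11, against 0.02 over all genes.

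Of 7 tested partners of lipoprotein lipase and other lipases, 1 rose and 2 fell, again near the 35.2% of all genes, with a median of -0.09. Sel1l, which acts in the folding and release of lipoprotein lipase, rose by 0.72. Lipa, the lysosomal acid lipase gene, fell by 0.76 and Pnpla2, the gene of adipose triglyceride lipase, fell by 0.69. The lipase maturation factor gene Lmf1 (0.13, adjusted p = 0.186), the lipase inhibitor gene Angptl4 (-0.18, adjusted p = 0.0865) and Gpihbp1, which anchors the lipase to capillaries (-0.06), did not pass. Acyl-CoA synthetases, which trap fatty acids inside the cell, went both ways among 4 tested, with a median of 0.37. Acsl4, which favours arachidonate, rose by 1.29 and Acsbg1 by 0.87, while Acsl5 fell by 0.72.

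Of 16 tested genes of mitochondrial fatty acid oxidation, 8 fell and 2 rose in SCR medium, where 15.8% of all genes fell and 19.3% rose, with a median of -0.18. Cpt1a, the rate-limiting carnitine palmitoyltransferase, fell by 1.47 (SE 0.08, adjusted p = 7.16e-08), and the oxidation enzyme genes Acaa2 (-0.77), Acads (-0.52) and Hadh (-0.41) fell too. Of 13 tested lipid droplet genes 5 rose and 3 fell, with a median of 0.02. Hilpda, an inhibitor of triglyceride breakdown, rose by 1.39 (SE 0.09, adjusted p = 2.07e-07), the lipase co-activator gene Abhd5 by 0.82, the glycerol-3-phosphate acyltransferase gene Gpat3 by 0.75 and the droplet coat gene Plin2 by 0.60. Of 8 tested lipoprotein receptors 1 rose and 3 fell, against 35.2% of all genes changed, with a median of -0.04: Msr1, the class A scavenger receptor, rose by 0.66, and Cxcl16 (-1.61), Scarb1 (-0.95) and Lrp8 (-0.42) fell.

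Pparg itself, which drives several of these genes in fat and macrophages, read 4.61 to 4.82 in all 12 arrays, below every array median, and was not tested; Ppara read 5.04 to 5.20. Of 8 tested PPAR, LXR and partner transcription factors 2 rose and 4 fell in SCR medium, with a median of -0.16. Rxrb (-0.38), Cebpa (-0.57) and the co-activator gene Ppargc1b (-0.33) fell, while Klf4 rose by 0.42. Of 11 tested PPAR and LXR target genes 3 rose and 5 fell, with a median of -0.20. Besides Cpt1a, Hilpda and Plin2, these included Scd1, the stearoyl-CoA desaturase, which fell by 0.78.

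**Figure D4:**
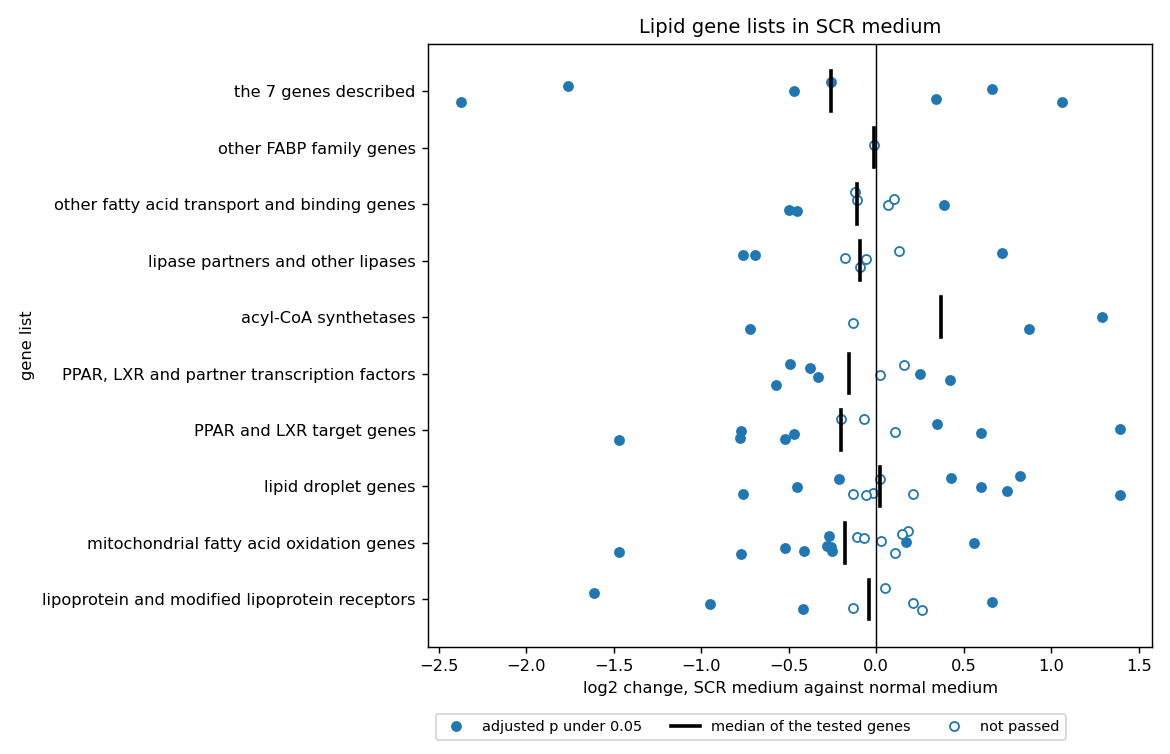
Log2 change in SCR medium against normal medium (horizontal axis) of each tested gene of the 9 lists and of the 7 genes described; filled points passed an adjusted p of 0.05 and vertical bars are list medians. Changes in both directions occur in each list with over 1 tested gene, and the largest falls are Fabp4 (-2.37) and Lpl (-1.76).

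Between KO and SCR medium 1 gene of these lists was called, Acsbg1 at 0.45 (SE 0.08, adjusted p = 0.0268), where 0.27% of all genes were. That call was lost without a filter, after median centring, in the 6 arrays alone, and without SCR replicate 1, 3 or 4 or KO replicate 1 or 3, with adjusted p up to 0.139. With CSH none was. Between KO medium and SCR medium with CSH, Acsbg1 (0.69), Hilpda (0.56), Abca1, the cholesterol efflux gene (0.52), Acsl4 (0.48) and Gpat3 (0.39) were higher in KO medium, and Cebpa (-0.53), Lipa (-0.51), Ppargc1b (-0.38) and Cpt1a (-0.35) were lower, where 1.9% of all genes were called. Calls of 5 of these genes lay near the threshold, and their direction held in every alternative run. Acsl4 was lost without CSH replicate 2 (0.46, adjusted p = 0.0567). Lipa was lost without KO replicate 1 or 3 or CSH replicate 2 (adjusted p up to 0.0779), after quantile normalization or median centring and in the 6 arrays alone. Cebpa was lost without any 1 KO replicate or CSH replicate 2 (up to 0.0808), after median centring and in the 6 arrays alone. Abca1 was lost without any 1 normal or KO replicate or CSH replicate 1 or 4 (up to 0.116), without a filter, after median centring and in the 6 arrays alone. Its call was also lost with the replicate number as a block (adjusted p = 0.0623). Cpt1a was lost without normal replicate 2 or 4, SCR replicate 3 or 4, any 1 KO replicate or CSH replicate 1 or 2 (up to 0.186). Without a filter, after median centring and in the 6 arrays alone Cpt1a did not pass either. Gpat3 did not pass with all its probe sets averaged (adjusted p = 0.124), nor Ppargc1b after median centring (adjusted p = 0.0528).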

How the data were processed

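The authors deposited log2 values. RMA, Expression Console by Affymetrix and the build mm10 are named in the submitters' processing notes, with no version; probe filters and batch steps were not stated there. RMA sets arrays on a common scale, which hides a change of total RNA and compresses changes of dim genes. Of 65528 probe sets, 31018 had 1 gene symbol in the platform table, updated through the RefSeq table of GRCm38.p6, 1478 had several and 33032 had none listed; the highest-mean probe set stood for a gene. Genes above the array median in at least 3 arrays went into limma 3.58.1 (R 4.3.3), with 1 mean per medium in lmFit and a trended eBayes prior; 8 degrees of freedom remained and the median residual SD was 0.096. The fit was also run on simulated data for KO against SCR medium with 18119 genes. There, 88 of 100 genes changed by 0.58 and 99 of 100 changed by 1 (log2) were called, with 4 false calls. The simulated noise was independent between genes and arrays, and apart from the planted changes each gene had 1 mean in all media. These counts therefore check the code only and do not give the power in the real arrays. The number of arrays limits the precision.

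The members and the gene lists were chosen with earlier results of these data known. List genes are named where called: up to 4 per list with the smallest p for SCR against normal medium, and every one between conditioned media; the 3 nearest genes with a plain symbol (no predicted gene, clone name, small RNA or pseudogene) are given per member. Fabp1, Slc27a3, Pparg, Ppara, Lmf1, Angptl4, Gpihbp1 and the marker genes were named after their values were seen. Alternatives were other filters, quantile normalization, median centring, no trend, array weights, other probe set rules, the replicate number as a block, the 6 arrays of a comparison, other thresholds and single arrays left out. Figures were drawn with matplotlib 3.10.9.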

Additional observations from a re-analysis of the deposited data

How the results depend on the processing

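Of 42 differences of a member gene in a comparison, 35 kept their side of the threshold in all alternatives run for them, and none of the 966 alternative values was a reversal of a called change. Those alternatives leave out the other thresholds, an adjusted p below 0.1 and a fold of at least 1.5, which were applied to the counts only. Replicate numbers were not taken as pairing, since the labels do not say that arrays of 1 number share a batch. Same-number pairs deviated together more often than others: 5 of 12 had r over 0.1 (-0.07 to 0.29), against 8 of 42 pairs of other numbers (-0.23 to 0.21). These 5 pairs were all of numbers 1 and 2, with r from 0.12 to 0.29, while pairs of numbers 3 and 4 lay at -0.07 to 0.06. Most alike to one of their own number were 5 of 12 arrays, and the share for unrelated arrays was not computed. Between KO and SCR medium 1 of the 7 genes and 49 of all genes were called. The 7 gave 0 without a filter, after median centring, with the replicate block (Cd36 0.56, adjusted p = 0.149; the block also ended the call of Abca1 between KO medium and SCR medium with CSH, adjusted p = 0.0623) and with a fold of at least 1.5 added, and 3 with array weights; all genes gave 376 with array weights, 22 in the 6 arrays alone and 28 with the fold. With single arrays left out the counts ran from 0 to 2 and from 20 to 50. Between KO medium and SCR medium with CSH 1 of the 7 and 345 of all genes were called. The 7 gave 2 after quantile normalization, with a random replicate block and in the 6 arrays alone, and 3 with array weights and at an adjusted p below 0.1. All genes gave 210 without a filter, 574 after quantile normalization, 154 after median centring (120 up, 34 down, against 219 and 126), 654 with array weights, 214 with the replicate block, 162 in the 6 arrays alone, 631 at an adjusted p below 0.1 and 72 with the fold; single arrays left out gave 1 to 2 and 107 to 373. For CSH in SCR medium the count of all genes rose from 0 to 79 with array weights, 1 with a random replicate block and 1 at an adjusted p below 0.1. Against normal medium the fold left 4 of the 7 genes in SCR and 4 in KO medium, and 1676 (SCR), 2077 (KO) and 1628 (SCR with CSH) of all genes. The cause of these shifts was not tested. Array weights gave SCR replicate 4 a weight of 6.14.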
